A study of Drosophila melanogaster with 8 samples.

Results

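The genes described here encode 10 secreted proteins of the fly that carry growth, stress and wasting signals between tissues. They were taken by gene symbol from the 17562 genes of the count tables, and all 10 were found. They are the activin-branch TGF-beta ligands daw, Actbeta and myo, the divergent TGF-beta ligand mav, the JAK/STAT cytokines upd1, upd2 and upd3, the insulin-like peptide Ilp6, the insulin-binding protein ImpL2 and the PDGF/VEGF-related factor Pvf1. Their mRNA was measured in the thorax of adult males, where flight and leg muscle fill most of the space. The 4 control libraries came from flies carrying tub-Gal80ts and dMef2-GAL4 that had been crossed to w[1118], and the 4 REPTOR[ACT] libraries descended from a cross of that line to UAS-REPTOR[ACT]. REPTOR is a bZIP transcription factor that TORC1 keeps out of the nucleus, and REPTOR[ACT] is a form of it that is always active. In both groups the temperature-sensitive Gal80 silenced the driver at 18 °C, where the males stayed for 3 to 4 days after collection, and 4 days at 29 °C then released it. The ages of the flies were not analysed here.

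The driver acts in muscle, but the RNA came from whole thoraces, each library from 5 to 6 of them, so fat body, haemocytes, nerve, trachea and cuticle were sampled too. In such bulk samples, fewer cells of a type and less RNA per cell cannot be told apart. The labels do not say whether the libraries of a group came from separate cultures, so the p-values measure only the spread between these samples, part of which may be technical. The question the comparison addresses is which of these signals differ in mRNA level when REPTOR is active in muscle.

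Activin-type ligands bind receptors that phosphorylate the transcription factor Smox, and the myostatin relative myo is known to restrain muscle growth. Unpaired cytokines bind the receptor Domeless and switch on Stat92E. Insulin-like peptides bind InR and raise growth through Akt and TORC1, and ImpL2 binds these peptides and keeps them from the receptor. ImpL2, upd3 and Pvf1 are known in flies as products of gut tumours that drive the wasting of muscle, fat body and other organs.

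The libraries held 26.79 to 50.03 M reads, and 12362 to 13045 genes had at least 1 read in a library. REPTOR itself had 92.5 to 132 CPM (reads per 1e6 reads of the library, scaled with TMM factors) in control and 270 to 337 CPM in REPTOR[ACT], so the labels were borne out in every library. All 13 muscle markers were measured. Of these 8 rose and 5 were not called, with a median log2 fold change of 0.39, beside 24.8% higher over all genes tested. Their summed level, in which the most abundant genes weigh most, was 21955 to 24245 CPM in control and 35616 to 38585 CPM in REPTOR[ACT]. A pair of libraries stood apart by genes of other organs, which were chosen after their values were seen. Control replicate 1 held 4946 reads of the rhodopsin gene ninaE and 314 reads of the Malpighian tubule gene Uro, against at most 48 and 2 reads in any other library. REPTOR[ACT] replicate 4 held 156 reads of the brain insulin gene Ilp2 against at most 7 elsewhere. The results below are therefore also given without these 2 libraries where a call rests on them.

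Changes are log2 fold changes of REPTOR[ACT] over control from edgeR's quasi-likelihood test. A gene is said to have risen or fallen where its adjusted p (Benjamini-Hochberg over all genes tested) was under 0.05. Of the 10 genes, 7 had enough reads for the test, and upd1, upd2 and upd3 did not. Ilp6 rose, mav fell, and ImpL2, daw, myo, Actbeta and Pvf1 were not called. That is 2 of 7 called, where 44.2% of all 9903 genes tested were called, 24.8% as higher and 19.4% as lower. The share called was thus no larger for these genes than for genes at large. The largest fitted change among the 7 was that of ImpL2, 0.86, so no tested member reached the second limit that the study set, a log2 fold change beyond 1 in either direction, which 6.88% of all genes passed together with the first. The median change was 0.25 over the 7 and -0.0090 over all genes tested.

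Libraries of the 2 groups that carry the same replicate number deviated together, and a fit with that number as a block called more of the genes. With the replicate block 3 of the 7 rose (Ilp6, ImpL2 and myo) and 3 fell (mav, Actbeta and Pvf1), where 52.8% of all genes were called, 28.3% as higher and 24.5% as lower. The calls of ImpL2, myo, Actbeta and Pvf1 therefore rest on whether the numbers are read as pairs, and both values are given for each.

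**Figure D1:**
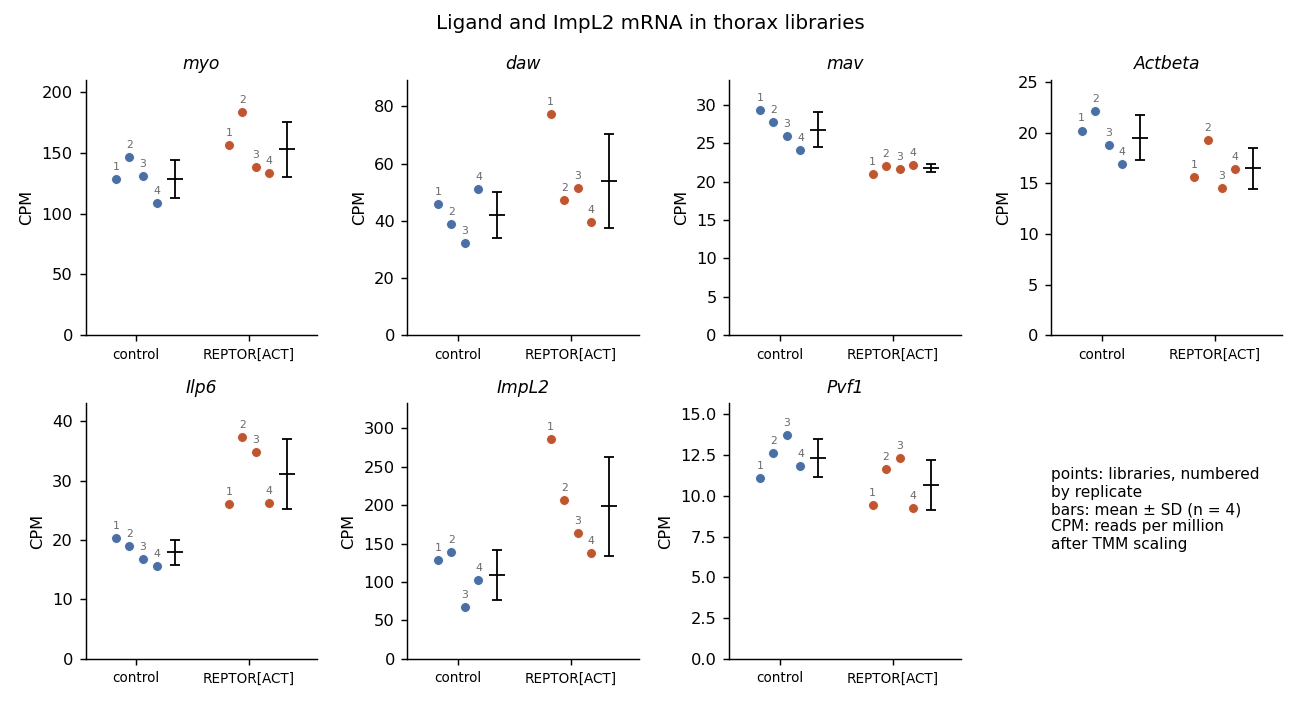
CPM of the 7 tested members in each library (vertical axes, each starting at 0) for control and REPTOR[ACT]; points carry the replicate number, and the bar beside them is the mean ± SD of 4 libraries. The groups are separate for Ilp6 and mav and overlap for ImpL2, myo, daw, Actbeta and Pvf1.

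Among the TGF-beta ligands, mav was the one that passed the test. mav, which glia and other cells release and which is the most divergent ligand of the family in flies, had 29.3, 27.8, 25.9 and 24.1 CPM in control replicates 1 to 4. Its level in REPTOR[ACT] replicates 1 to 4 was 21.0, 22.1, 21.7 and 22.2 CPM. Every control library was above every REPTOR[ACT] library, and the REPTOR[ACT] libraries lay close together (21.7 ± 0.531 CPM, against 26.8 ± 2.26 in control; SD, n = 4). mav fell by 0.30 on the log2 scale (SE 0.071, edgeR adjusted p = 0.00475), a change of 1.23-fold. The groups did not overlap for 2 of the 7 tested members, mav and Ilp6, where 41.9% of all genes tested had no overlap. The call held when each library was left out in turn (adjusted p at most 0.0192) and without both libraries that stood apart (-0.27, adjusted p = 0.0298). It was lost when total library size replaced TMM factors (-0.29, adjusted p = 0.0503).

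myo was the most abundant of the TGF-beta ligands in CPM. It encodes myoglianin, the fly relative of myostatin, which muscle and glia are known to make. Its control replicates 1 to 4 had 128, 146, 131 and 109 CPM. The REPTOR[ACT] replicates 1 to 4 had 156, 184, 138 and 134 CPM. The groups overlapped, since control replicate 2 was above REPTOR[ACT] replicates 3 and 4, yet within each of the 4 same-numbered pairs the REPTOR[ACT] library was the higher. The fitted change was 0.25 (SE 0.11, 95% interval -0.00036 to 0.50), and it was not called without the block (edgeR adjusted p = 0.0980). With the block myo rose, by 0.25 (SE 0.053, adjusted p = 0.00269), a change of the same size with a smaller error. Of the 8 unblocked fits that each left out 1 library, 1 called it, that without control replicate 2 (0.33, edgeR adjusted p = 0.0435). The adjusted p of these fits ran up to 0.209. Without both libraries that stood apart myo was not called (0.31, edgeR adjusted p = 0.107).

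daw encodes Dawdle, an activin-like ligand that responds to sugar in the diet and acts on metabolism. daw had 45.7, 39.0, 32.3 and 51.1 CPM in control replicates 1 to 4. It had 77.5, 47.2, 51.3 and 39.5 CPM in the REPTOR[ACT] replicates. Only REPTOR[ACT] replicates 1 and 3 exceeded the highest control library, and 3 of 4 same-numbered pairs were higher in REPTOR[ACT], the exception being pair 4. The fitted change was 0.36 (SE 0.23, 95% interval -0.18 to 0.89), not called with either fit (adjusted p = 0.244 without and 0.321 with the block). The interval takes in both no difference and a rise of the size seen for Ilp6. Leaving out single libraries moved the estimate between 0.13 and 0.48, and no such fit called it; REPTOR[ACT] replicate 1, the highest, decided the lower end.

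Actbeta encodes an activin ligand that motor neurons and endocrine cells of the gut are known to release. Actbeta had 20.2, 22.1, 18.8 and 16.9 CPM in control replicates 1 to 4. In the REPTOR[ACT] replicates it had 15.6, 19.3, 14.5 and 16.5 CPM. The groups overlapped, while each of the 4 same-numbered pairs was lower in REPTOR[ACT], pair 4 by no more than 0.036 on the log2 scale. Without the block the change was -0.25 (SE 0.10, adjusted p = 0.0761), and with it Actbeta fell by 0.24 (SE 0.070, adjusted p = 0.0137). Of the 8 unblocked fits that each left out 1 library, 2 called Actbeta. These were without control replicate 4 and without REPTOR[ACT] replicate 2 (-0.31 and -0.32, edgeR adjusted p = 0.0407 and 0.0206). The adjusted p of the 8 fits ran up to 0.234. Without both libraries that stood apart Actbeta was not called (-0.23, edgeR adjusted p = 0.217).

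Summed over daw, Actbeta, myo and mav, the libraries held 201 to 235 CPM in control and 212 to 272 CPM in REPTOR[ACT]. The range of one group ran into that of the other. myo made up 54.1% to 62.9% of this sum in control and 57.8% to 67.5% in REPTOR[ACT]. These shares compare reads and not molecules, since the mRNAs differ in length. The neuron markers, which bear on Actbeta, summed to 786 to 934 CPM in control and 741 to 860 CPM in REPTOR[ACT]. Of the 10, 2 were lower and 8 not called, beside 19.4% lower over all genes tested. Their part in the result was not tested. The glia markers, which bear on mav and myo, summed to 1460 to 1700 CPM in control and 1676 to 1967 CPM in REPTOR[ACT]. Of the 8, 2 were higher, 1 was lower and 5 were not called, with a median change of -0.14. Over all genes tested 24.8% were higher and 19.4% lower. Gs2, the most abundant, was higher (means 672 and 948 CPM), and nrv2 was lower (280 and 199 CPM). The sum therefore does not show the direction of most glia markers, and their part was not tested either.

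**Figure D2:**
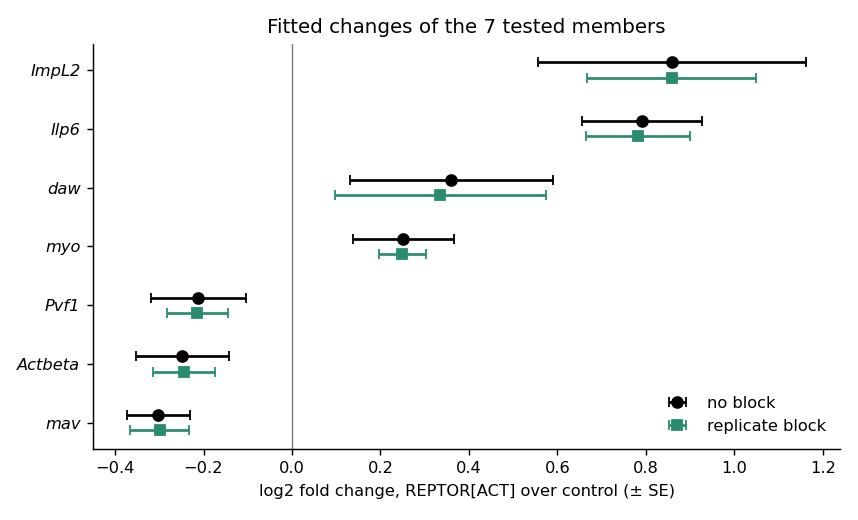
Fitted log2 fold change of REPTOR[ACT] over control (horizontal axis, 0 marked by a line) for the 7 tested members, without a block (black circles) and with the replicate number as a block (green squares); bars are ± SE. The estimates nearly coincide (0.25 against 0.25 for myo), and the bars are shorter with the block for each of the 7 except daw.

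Of the genes that act on insulin signalling, Ilp6 rose. Ilp6 is an insulin-like peptide of the IGF type that the fat body makes, mainly when feeding stops. Control replicates 1 to 4 had 20.4, 18.9, 16.8 and 15.6 CPM of Ilp6. The REPTOR[ACT] replicates 1 to 4 had 26.0, 37.3, 34.9 and 26.2 CPM. All REPTOR[ACT] libraries lay above all control libraries, with replicates 2 and 3 higher than replicates 1 and 4. Ilp6 rose by 0.79 on the log2 scale (SE 0.13, 95% interval 0.49 to 1.09, edgeR adjusted p = 8.47e-04), that is 1.73-fold, from 17.9 ± 2.12 to 31.1 ± 5.84 CPM (SD, n = 4). The rise was called when each library was left out (0.70 to 0.87), without both libraries that stood apart (0.93, adjusted p = 0.00108) and with the block (0.78, adjusted p = 0.00147).

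ImpL2 had the largest fitted change and the largest error. It encodes a secreted immunoglobulin-domain protein that binds insulin-like peptides. It shares 61.9% of its exon bases with CG46460, which is not among the genes counted here, so the ImpL2 values may include reads of that gene. ImpL2 had 129, 140, 66.9 and 102 CPM in control replicates 1 to 4. In REPTOR[ACT] replicates 1 to 4 it had 286, 207, 163 and 138 CPM. The groups met at one point, where REPTOR[ACT] replicate 4 (138 CPM) lay just under control replicate 2 (140 CPM), and every REPTOR[ACT] library was higher than the control library of its number, by 0.44 to 1.29 on the log2 scale. The mean was 109 ± 32.4 CPM in control and 199 ± 64.8 CPM in REPTOR[ACT] (SD, n = 4). The fitted change was 0.86 (SE 0.30, 95% interval 0.14 to 1.58, not adjusted for the number of genes), with an edgeR adjusted p of 0.0557, so that it was not called. With the block ImpL2 rose by 0.86 (SE 0.19, adjusted p = 0.0262).

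The call of ImpL2 also turned on the tool and on a single library. DESeq2 called it (0.85, adjusted p = 0.0277), as did limma-voom (0.86, adjusted p = 0.0206). Without REPTOR[ACT] replicate 4, the library that held brain insulin transcripts, the edgeR fit called it too (adjusted p = 0.0394), and without that library and control replicate 1 the change was 1.09 and not called (adjusted p = 0.0530). Over the 8 fits that each left out 1 library the estimate ran from 0.63 to 1.01, and 1 of them made the call.

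Fat body, a known source of Ilp6 and ImpL2, was present in these thoraces. The 9 fat body markers found summed to 4470 to 6041 CPM in control and 5004 to 7141 CPM in REPTOR[ACT]. Of the 8 tested, 1 was higher, 1 lower and 6 were not called, beside 24.8% higher and 19.4% lower over all genes tested. Fbp1, also on this list, had 0 to 5 reads per library and was not tested. Lsp2, a storage protein of fat body, varied most, with 297, 100, 57.5 and 101 CPM in control replicates 1 to 4 and 444, 103, 567 and 435 CPM in REPTOR[ACT] replicates 1 to 4. The part of fat body content in the values of Ilp6 and ImpL2 was not tested.

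Of 13 genes of the insulin receptor branch 7 rose, 3 fell and 3 were not called, beside 24.8% higher and 19.4% lower over all genes tested. Their median change was 0.52 (-0.0090 over all genes), and whether the branch differed from its ligands was not tested. InR, the receptor, had 49.7 to 56.5 CPM in control and 81.1 to 110 CPM in REPTOR[ACT] and rose by 0.82 (SE 0.088, adjusted p = 1.69e-05). chico, its substrate adaptor, rose by 0.83 (SE 0.085) and the kinase gene Akt by 0.997 (SE 0.080). Sdr, which encodes a secreted protein related to the receptor that, like ImpL2, binds insulin-like peptides in the fly, had 9.34 to 10.6 CPM in control and 32.9 to 39.3 CPM in REPTOR[ACT]. Sdr rose by 1.81 (SE 0.077, adjusted p = 2.13e-08), so of the 2 antagonists of insulin-like peptides measured here Sdr was called by each fit and ImpL2 by some. step, a guanine nucleotide exchange factor of this branch, fell by 0.57 (SE 0.060).

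The other insulin-like peptides were scarce. Of 9 further insulin-like and relaxin-like ligands and receptors, 2 were abundant enough to test and neither was called. Ilp2, made by neurosecretory cells of the brain, had 4, 0, 7 and 0 reads in the controls and 4, 2, 6 and 156 reads in REPTOR[ACT]. Ilp3, from the same cells, had 5, 2, 1 and 2 reads and 6, 2, 3 and 38 reads. Ilp5, the third gene of these cells, had 3, 3, 3 and 5 reads and 3, 6, 3 and 31 reads. In all 3 the single high library was REPTOR[ACT] replicate 4, which also held the 22 reads of the brain hormone gene Eh, against at most 3 elsewhere. The summed neuron markers of that library were within the control range given above, and no group difference is read from these genes.

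**Figure D3:**
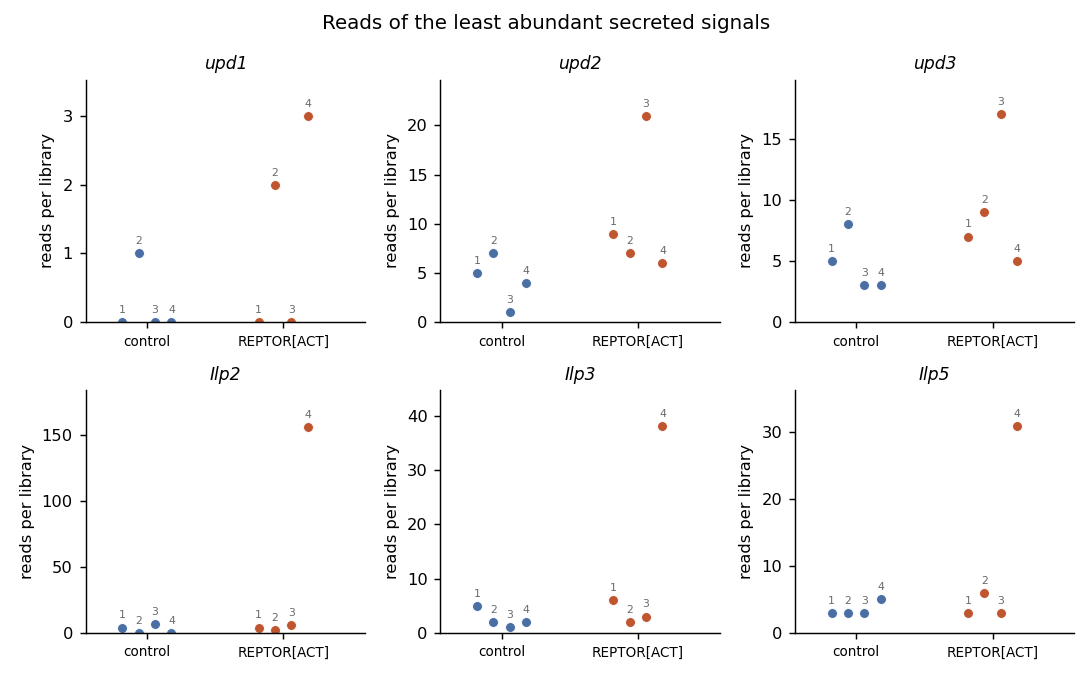
Reads per library (vertical axes, starting at 0) of upd1, upd2, upd3 and the brain insulin genes Ilp2, Ilp3 and Ilp5; points carry the replicate number. The highest upd2 and upd3 values, 21 and 17 reads, are in REPTOR[ACT] replicate 3, and the high values of Ilp2, Ilp3 and Ilp5 (156, 38 and 31 reads) are in REPTOR[ACT] replicate 4.

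The Unpaired cytokines were at the limit of detection. Where a library had 0 reads, counting error alone leaves room for up to 3, which equals 0.0626 to 0.114 CPM depending on the library. upd1, which acts mainly in development, had 0, 1, 0 and 0 reads in the controls and 0, 2, 0 and 3 reads in REPTOR[ACT], at or under that limit throughout. No fold is given for it.

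upd2, a fat body cytokine likened to leptin, had 5, 7, 1 and 4 reads in control replicates 1 to 4. It had 9, 7, 21 and 6 reads in the REPTOR[ACT] replicates. After scaling for depth these were 0.153, 0.146, 0.0380 and 0.116 CPM against 0.211, 0.243, 0.702 and 0.173 CPM, so that the groups did not overlap. The means, 0.113 ± 0.0526 and 0.332 ± 0.248 CPM (SD, n = 4), differed by an exact two-sided permutation test (p = 0.0286, the smallest that 4 against 4 libraries can give, not adjusted for the number of genes). The difference rests on few reads. Without any 1 of the 4 control libraries the exact permutation p was 0.0857 to 0.171, although the groups still did not overlap. Without any 1 of the REPTOR[ACT] libraries that p stayed at 0.0286. In groups of unequal size it also depends on which group could hold the high REPTOR[ACT] replicate 3, so its rise does not measure the scarcity of reads. Without REPTOR[ACT] replicate 3 the difference of the upd2 means was 0.0957 CPM in place of 0.219 CPM. In a fit without the filter on low counts upd2 rose by 1.44 (SE 0.52, edgeR adjusted p = 0.0467), and DESeq2 did not call it (1.47, adjusted p = 0.0729).

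upd3, the cytokine that haemocytes and gut release under stress, had 5, 8, 3 and 3 reads in control and 7, 9, 17 and 5 reads in REPTOR[ACT]. Each same-numbered pair was higher in REPTOR[ACT], as for upd2, and the groups overlapped. The difference of the means, 0.130 ± 0.0364 against 0.297 ± 0.196 CPM (SD, n = 4), did not pass the test (exact two-sided permutation p = 0.143). Without REPTOR[ACT] replicate 3 the difference of the upd3 means was 0.0766 CPM in place of 0.167 CPM. Without the filter the fitted change was 1.10 (SE 0.49, edgeR adjusted p = 0.109). In the REPTOR[ACT] group replicate 3 was the highest for both cytokines. The haemocyte markers summed to 603 to 674 CPM in control and 530 to 633 CPM in REPTOR[ACT]. Of 9 tested, 2 were higher, among them NimC1 (0.87, SE 0.12), 1, Hml, was lower (-0.28, SE 0.080) and 6 were not called. Over all genes tested 24.8% were higher and 19.4% lower. The blood cell marker He stayed at 16 to 33 reads. The gut markers summed to 62.4 to 106 CPM in control and 39.5 to 189 CPM in REPTOR[ACT]. Of 5 tested, 1, esg, was higher (0.85, SE 0.30) and 4 were not called. Amy-p and Amy-d were highest in REPTOR[ACT] replicate 3 (86.5 and 96.8 CPM), the library with the highest upd2 and upd3. The part of haemocytes or gut in the values of upd3 was not tested.

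Among the genes through which these cytokines signal, 3 of 10 JAK/STAT receptors, mediators and inhibitors rose, 2 fell and 5 were not called. That is 5 of 10 called, near the 44.2% of all genes tested. dome, the gene of the receptor Domeless, had 25.6 to 30.7 CPM in control and 37.0 to 47.2 CPM in REPTOR[ACT] and rose by 0.57 (SE 0.091, adjusted p = 3.70e-04). Socs36E, an inhibitor that Stat92E itself induces, had 14.5 to 16.6 CPM in control and 29.5, 30.6, 30.4 and 19.3 CPM in REPTOR[ACT]. It rose by 0.82 (SE 0.14, adjusted p = 7.17e-04), with replicate 4 the lowest of its group. Stat92E rose by 0.35 (SE 0.087), while Su(var)2-10, which encodes a PIAS-type inhibitor, fell by 0.22 (SE 0.059) and Socs16D by 0.14 (SE 0.051). The Socs16D call was lost when any single library was left out (adjusted p = 0.0617 to 0.134). Su(var)2-10 was not called with total library size (-0.20, adjusted p = 0.138), and without both libraries that stood apart neither it (adjusted p = 0.0610) nor Socs16D (adjusted p = 0.0958) was called.

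The Turandot genes encode stress-induced secreted peptides that JAK/STAT signalling is known to switch on. Of 8 such genes, vir-1 included, 5 were tested, and of these 3 fell and 2 were not called, beside 19.4% lower over all genes tested. TotA had 171, 135, 170 and 180 CPM in control replicates 1 to 4 and 49.5, 42.1, 57.6 and 39.7 CPM in REPTOR[ACT], with no overlap, and fell by 1.79 (SE 0.13, adjusted p = 2.21e-06). TotX fell by 1.27 (SE 0.26) and TotC by 1.23 (SE 0.28); with the replicate block TotC was not called (-1.25, adjusted p = 0.0611). vir-1, another target, was not called (0.17, SE 0.12, adjusted p = 0.276), and neither was TotM (0.86, SE 0.32, adjusted p = 0.0589). Turandot genes resemble each other in sequence, and no source used here gives the rule by which ambiguous reads were counted, so the values of single members are uncertain.

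Pvf1, a ligand of the receptor tyrosine kinase Pvr, had 11.1, 12.6, 13.8 and 11.8 CPM in control replicates 1 to 4. Its REPTOR[ACT] replicates had 9.46, 11.7, 12.3 and 9.28 CPM. REPTOR[ACT] replicates 1 and 4 were below all controls and replicates 2 and 3 were among them, and each same-numbered pair was lower in REPTOR[ACT], by 0.12 to 0.35 on the log2 scale. The change was -0.21 (SE 0.11, 95% interval -0.45 to 0.025, adjusted p = 0.135) without the block, and with it Pvf1 fell by 0.21 (SE 0.068, adjusted p = 0.0226). Its receptor gene Pvr had 72.0 to 87.4 CPM in control and 64.7 to 77.0 CPM in REPTOR[ACT] and was not called (-0.15, SE 0.076, adjusted p = 0.140). Of 16 genes of the Pvr branch 3 rose and 13 were not called, with a median change of 0.072, beside 44.2% called over all genes. The 3 were the MAP kinase gene rl (0.78, SE 0.067), Ras85D, which encodes the fly Ras (0.32, SE 0.053), and Ced-12, the fly relative of ELMO (0.26, SE 0.079).

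On the receptor side of the TGF-beta ligands the changes were small. The activin type I receptor gene babo had 53.3 to 60.8 CPM in control and 56.2 to 62.0 CPM in REPTOR[ACT] (0.039, SE 0.066, 95% interval -0.11 to 0.18, adjusted p = 0.663). The type II receptor gene put rose by 0.22 (SE 0.055, adjusted p = 0.00644), from 50.1 to 56.1 CPM to 62.0 to 63.7 CPM, with no overlap. wit, the other type II receptor, was not called (-0.16, SE 0.091, adjusted p = 0.175). That made 1 of 7 receptors and mediators called, with a median change of 0.026, beside 44.2% called over all genes. Among 5 proteases that process such ligands, tok, a tolloid-related protease known to cleave activin-type precursors, rose by 0.67 (SE 0.14, adjusted p = 0.00277), and the furin gene Fur1 fell by 0.23 (SE 0.070, adjusted p = 0.0216). Of 26 other secreted growth, cytokine and hormone genes tested, 3 rose and 23 were not called, beside 44.2% called over all genes. The 3 that rose were the FGF gene bnl (0.96, SE 0.12), Gbp2, which encodes a growth-blocking peptide (0.38, SE 0.082), and the imaginal disc growth factor gene Idgf5 (0.35, SE 0.12). The calls of Fur1 and Idgf5 were lost without some single libraries (Fur1 without control replicate 2 or 3 or REPTOR[ACT] replicate 1 or 4, Idgf5 without control replicate 1, 2 or 3 or REPTOR[ACT] replicate 3 or 4), with adjusted p = 0.0626 to 0.0834 for Fur1 and 0.0711 to 0.102 for Idgf5. Without both libraries that stood apart Fur1 had an adjusted p of 0.0856 and Idgf5 one of 0.217. Ced-12 was likewise not called without REPTOR[ACT] replicate 1 (adjusted p = 0.0603).

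**Figure D4:**
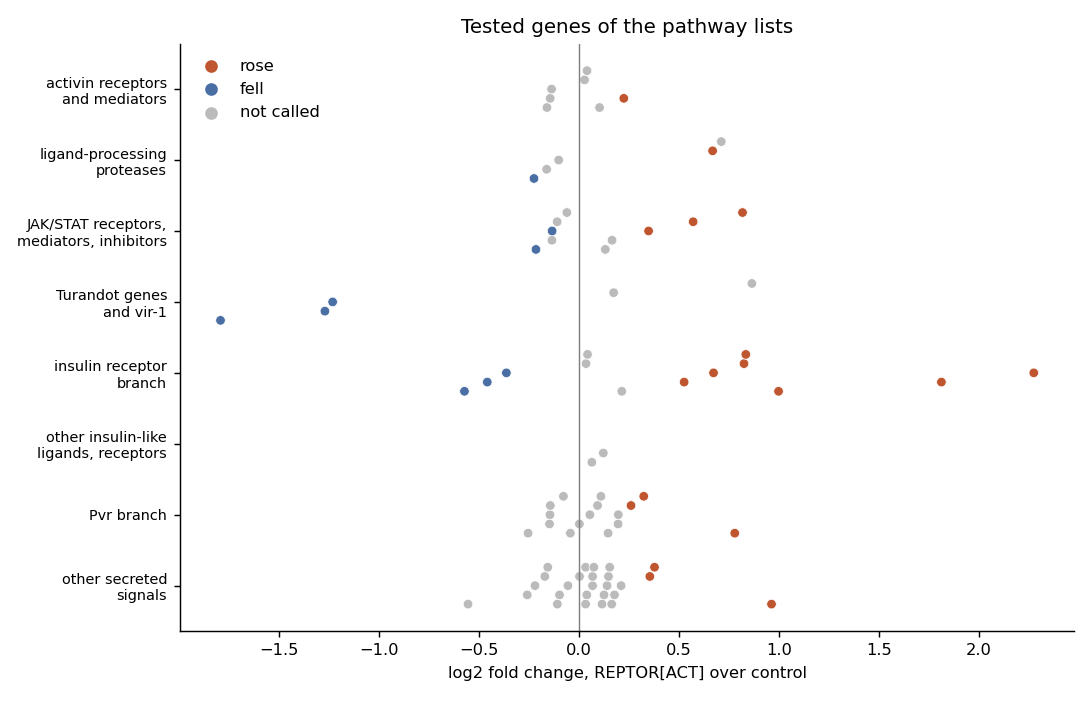
Log2 fold change of REPTOR[ACT] over control (horizontal axis) for each tested gene of 8 pathway lists (rows; vertical offsets within a row only separate points), in orange where it rose, blue where it fell and grey where it was not called. The insulin receptor branch has 7 that rose and 3 that fell, and the Turandot row has 3 that fell.

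Levels of different genes were compared per kilobase (kb) of annotated exon. In control ImpL2 (41.0 ± 12.2 CPM per kb; SD, n = 4) and myo (32.3 ± 3.87) came first, with overlapping ranges. daw (12.9 ± 2.50) and mav (9.90 ± 0.835) followed and overlapped each other. Ilp6 (7.43 ± 0.879) lay below mav and above Actbeta (5.32 ± 0.606) without overlap, and Actbeta overlapped Pvf1 (4.43 ± 0.412). upd3 (0.0586 CPM per kb), upd2 (0.0572) and upd1 (0.00167) were far below, and upd3 and upd2 overlapped.

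In REPTOR[ACT] the order of the means changed at 2 places, where Ilp6 (12.9 CPM per kb) lay above mav (8.04) and overlapped daw (16.5), and where upd2 (0.168) was above upd3 (0.134) with overlapping ranges in both groups. ImpL2 (74.5) and myo (38.5) again came first, here without overlap. Actbeta (4.49) and Pvf1 (3.84) stayed neighbours with overlapping ranges. With the longest transcript in place of all exons Ilp6 would stand higher, at 9.40 CPM per kb in control and 16.3 in REPTOR[ACT]. Its control mean would then lie near that of mav (9.90 by either length). The separation of these 2 genes in control therefore depends on the length used.

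**Figure D5:**
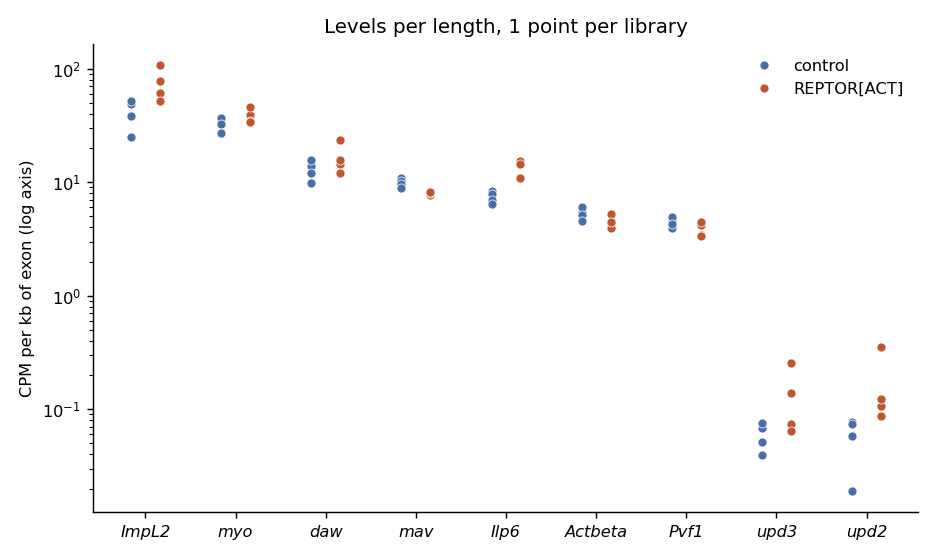
CPM per kb of exon (vertical log axis) in each library for 9 of the 10 genes, ordered by the control mean, control in blue and REPTOR[ACT] in orange; upd1, with 0 reads in several libraries, is left out. ImpL2 and myo are the highest and upd2 and upd3 the lowest.

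By position in BDGP6.54, Actbeta (chr4:1077331-1084796, minus strand), myo (chr4:690686-696055, minus) and mav (chr4:623219-626031, minus) all lie on the small chromosome 4. The 3 cytokine genes lie side by side on the X, upd2 (chrX:18240654-18243284, minus), upd3 (chrX:18277233-18284596, plus) and upd1 (chrX:18305354-18309291, minus). Pvf1 (chrX:18832682-18842901, plus) and Ilp6 (chrX:2331493-2334658, minus) are on the same chromosome, daw (chr2L:2805261-2812376, plus) is on 2L, and ImpL2 (chr3L:4224006-4236147, minus) is on 3L. All 10 are annotated as protein-coding. Ilp6 overlaps Raf on the other strand with 0 shared exon bases. ImpL2 shares 1651 exon bases, 61.9% of its own, with CG46460 on the same strand, so reads there cannot be given to one of the 2 genes by position. CG46460 is not among the genes counted in these data, so the ImpL2 values may include its reads. How such reads were counted is not known. The other 8 overlap no annotated gene.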

How the data were processed

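Groups and replicate numbers were taken from the labels. The 10 genes, the gene lists and the tests were chosen with earlier results of these data known. Per the study's methods, the authors prepared poly-A libraries (KAPA mRNA HyperPrep), sequenced single reads in 4 pools on a NextSeq instrument and used STAR 2.7.2b for alignment, with FlyBase dmel r6.30 as the reference. The labels differ: they name another kit and sequencer, and as genome mm10, a mouse build to which fly reads cannot have been aligned. The counter, its use of strand and its rule for ambiguous reads: not given in the sources used here. Deposited values are expected counts of each gene without scaling for library size. Every value was a multiple of 0.25, as a mean over 4 pools would be (an origin inferred from the values), so values were multiplied by 4, after which 100% were whole within 1e-06. Integer counts had been planned for, and the same test was used.

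Genes were filtered with filterByExpr (minimum count 10, total 15), which left 9903 of 14919 with reads. The main test was edgeR 4.0.16 (TMM factors, robust quasi-likelihood, no covariate) on all 8 libraries, with R 4.3.3. SEs were computed as fold change over the root of F, and 95% intervals from those. Genes under the filter were compared by an exact permutation test of CPM. DESeq2 1.42.0, limma-voom (limma 3.58.1), other scalings, filters, rounding of the deposited values, a replicate block and fits without single libraries were alternatives; a fit without control replicate 1 and REPTOR[ACT] replicate 4 was added after seeing the data. Deviations from the group mean correlated between same-numbered libraries at 0.151 (replicate 1), 0.486 (2), 0.236 (3) and 0.163 (4). Each value exceeded 0.1, and the numbers were therefore read as pairs. For replicates 3 and 4 a library of another number was closer (0.253). What the numbers share is not stated. Of 17562 gene identifiers 17506 were in Ensembl's BDGP6.54 gene set, which gave coordinates, exon lengths and overlaps; it shares the Release 6 assembly with dmel r6.30. No sequence or promoter was examined, because no genome was used here. Named genes of the pathway lists were the receptors babo, put, wit, dome, Pvr and InR and up to 4 further called genes of each list by adjusted p; others were chosen after their values were seen. The fit was tested on simulated data.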

Additional observations from a re-analysis of the deposited data

Results flagged for a closer look

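Among 84 checks of a gene within a group of 4 libraries, 9 found a library far from the other 3, by a gap to its neighbour that, as a share of the group's range, was over Dixon's 95% limit for 4 samples; chance gives about 1 in 20. In REPTOR[ACT] replicate 3, upd2 had 21 reads (0.702 CPM, gap 0.868), tok 134 CPM (gap 0.959) and Ras85D 68.9 CPM (gap 0.872). In REPTOR[ACT] replicate 4, Ilp2 had 156 reads (gap 0.970), Ilp3 38 reads (gap 0.930), Ilp5 31 reads (gap 0.833) and Ilp7 39 reads (gap 0.862), all high, and Socs36E was low at 19.3 CPM (gap 0.902). In REPTOR[ACT] replicate 1, Sdr had 39.3 CPM (gap 0.855). Ets21C, a stress-responsive transcription factor gene, was also highest in the library with the highest upd2 level: it had 8.66 CPM in REPTOR[ACT] replicate 3, against 3.63, 3.99 and 4.2 CPM in the other 3 and 1.77 to 2.29 CPM in control (chosen after its values were seen).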

How the results depend on the processing

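No member changed direction under any alternative run; of 156 values of members under an alternative, 140 kept their side of the threshold. The replicate block called Actbeta (-0.24), myo (0.25), Pvf1 (-0.21) and ImpL2 (0.86), and changed no other member's call. With it 3 members were called higher and 3 lower, and 23 pathway genes higher (18 in the main fit) and 14 pathway genes lower, each more than in the main fit. Over all genes tested the block also raised the shares called, from 24.8% to 28.3% higher and from 19.4% to 24.5% lower. Whether pathway genes differed from genes at large was not tested. mav lost its call with total library size (-0.29), which left 0 members lower; that fit called 3583 genes in all. ImpL2 was called by DESeq2 (0.85) and limma-voom (0.86). DESeq2, limma-voom and the fit with no filter called 2 members higher. For each member called or lost when 1 library was left out, the range was -0.32 to -0.17 for Actbeta, 0.16 to 0.33 for myo and 0.63 to 1.01 for ImpL2 (1.09 without control replicate 1 and REPTOR[ACT] replicate 4); members called higher ran from 1 to 2 and lower from 1 to 2. The upd2 difference in mean CPM was 0.0957 to 0.272 with 1 library left out. It was 0.285 without control replicate 1 and REPTOR[ACT] replicate 4. The exact permutation p there was 0.1, the smallest that so few libraries can give, so that setting could not have called upd2. The cause of these changes was not tested. Of 468 values of the other named genes 29 lost their call, and none reversed. The Unpaired cytokines had 0 to 21 reads per library; how far depth, rather than spread between libraries, set their error was not tested.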
